A study of Mus musculus with 16 samples.

Results

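Enzymes that build amino acids in the liver were examined here: 10 genes, taken as every probe set whose platform gene symbol was Asns, Psat1, Phgdh, Psph, Shmt2, Mthfd2, Aldh18a1, Gpt2, Got1 or Cth. They had 25 of the 22626 probe sets tested and were 10 of the 12393 genes named on the array. All 10 genes had at least 1 probe set, from 1 for Psph, Got1 and Cth to 5 for Aldh18a1. A probe set ending in _x_at may bind transcripts of other genes too, and 12 of the 25 were of that kind, against 1512 of all 22626. Counts below are over probe sets, and every probe set is reported.

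Liver RNA came from male FvB/n mice and was hybridised to 16 Affymetrix arrays in 2 experiments of 8. In the first, the mice were TTR::Fv2E-PERK transgenics of the high expression line, 4 arrays labelled untreated and 4 labelled AP20187. The series text describes the controls as mock injected. Fv2E-PERK joins the kinase part of PERK to a domain that the compound AP20187 pairs up, so that the kinase is switched on without stress in the endoplasmic reticulum, and the transthyretin (TTR) promoter drives it in hepatocytes. All 8 arrays of this experiment therefore came from mice carrying the transgene, and none from mice without it. In the other experiment, wildtype and Alb::GC mice ate either a low fat (LFD) or a high fat diet (HFD), with 2 arrays in each of 4 groups. The name Alb::GC stands for an active fragment of GADD34, a partner of the phosphatase that reverses the PERK reaction, under the albumin promoter. Ages, the dose and the lengths of treatment and feeding were not stated in the sources used here. The labels do not say that each array was a separate animal, so each p-value rests on the spread between arrays, which may be technical. Mice without Atf4, mentioned in the series text, were not analysed here.

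PERK is one of several kinases that phosphorylate the translation factor eIF2α. Phosphorylated eIF2α slows protein synthesis in general but favours translation of ATF4, a transcription factor whose known targets include Asns, Psat1, Phgdh, Mthfd2 and other genes that make or import amino acids. Serine is made from a glycolysis intermediate by PHGDH, PSAT1 and PSPH in that order, and SHMT2 and MTHFD2 then pass its carbon into the folate pool inside mitochondria. ASNS makes asparagine, ALDH18A1 takes the first steps from glutamate to proline, GPT2 and GOT1 move amino groups between amino acids and keto acids, and CTH makes cysteine from cystathionine.

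Promoters were looked at for a match to the core of the C/EBP-ATF composite element, the site through which ATF4 is known to act, spelled TGATGNAA and searched on both strands. The RefSeq table used, on build GRCm38.p6, runs from 250 bases before to 50 after a start. It held 10 promoters for 9 of the genes, with a pair for Psat1, and Cth was not matched. The core was found in 2 of these 10 promoters, those of Asns and Got1, and in 3.97% of all 32851 promoters of the same length. The cyclic AMP response element TGACGTCA was found in 0 of the 10 and in 1.79% of all, so no matches of the motifs overlapped in these genes. The sequences shown are the 130 bases before the start, 5′ to 3′ on the gene's strand, with the matched core in capitals. Asns and Got1 are shown for their match, and Psat1 and Gpt2 because they rose with AP20187 and held none (for Psat1, 1 of its pair is shown).
Asns, chr6:7693210-7693339, minus strand: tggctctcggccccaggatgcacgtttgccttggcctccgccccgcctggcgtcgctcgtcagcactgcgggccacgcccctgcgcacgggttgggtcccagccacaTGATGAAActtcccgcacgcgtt
Got1, chr19:43524606-43524735, minus strand: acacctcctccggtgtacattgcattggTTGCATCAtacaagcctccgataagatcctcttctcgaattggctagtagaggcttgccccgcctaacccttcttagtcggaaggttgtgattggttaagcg
Psat1, chr19:15925060-15925189, minus strand: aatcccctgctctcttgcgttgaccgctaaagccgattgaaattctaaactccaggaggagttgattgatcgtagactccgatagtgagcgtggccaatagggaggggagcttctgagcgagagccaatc
Gpt2, chr8:85492446-85492575, plus strand: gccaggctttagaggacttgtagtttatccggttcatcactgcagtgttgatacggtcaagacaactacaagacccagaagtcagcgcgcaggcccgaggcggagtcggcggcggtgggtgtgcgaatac
The Asns match lay 23 to 16 bases before the start and read TGATGAAA on the gene's strand. The Got1 match lay 102 to 95 bases before the start on the other strand, so that it reads TTGCATCA above. A match describes the letters and is no measurement of binding.

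The deposited value of a probe set on an array is a ratio on a linear scale around 1. The sources used here do not say what each ratio was taken against. The experiments were scaled separately, and ratios are set side by side only within an experiment. A ratio carries no level of expression: 1 gene cannot be ranked against another, and the presence of a tissue's markers cannot be tested with it. Differences below are of log2(ratio + 0.05), fitted with limma, with their standard error. A probe set was called higher or lower where its Benjamini-Hochberg adjusted p over all 22626 probe sets was under 0.05. The offset of 0.05 makes changes that start near 0 smaller than they are on the ratio itself.

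The first comparison was of AP20187 against no AP20187 in mice that all carried Fv2E-PERK, and no group received AP20187 without the transgene. With AP20187, 14 of the 25 probe sets were higher, covering 8 of the 10 genes, 2 of Shmt2 were lower and 9 were not called. Over all probe sets 13.7% were called higher and 20.4% lower. The median difference of the 25 was 1.1, against -0.133 for all probe sets. Both Psat1 probe sets had larger differences than any other member, and the remaining genes called higher were Asns, Phgdh, Mthfd2, Gpt2, Aldh18a1, Psph and Got1. In 15 of the 25 probe sets the 4 treated and 4 untreated arrays did not overlap. The share of all probe sets without overlap was not counted, so the 15 cannot be read as particular to these genes. At an unadjusted limma p under 0.05, 18 of the 25 passed, against 43.0% of all probe sets.

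**Figure D1:**
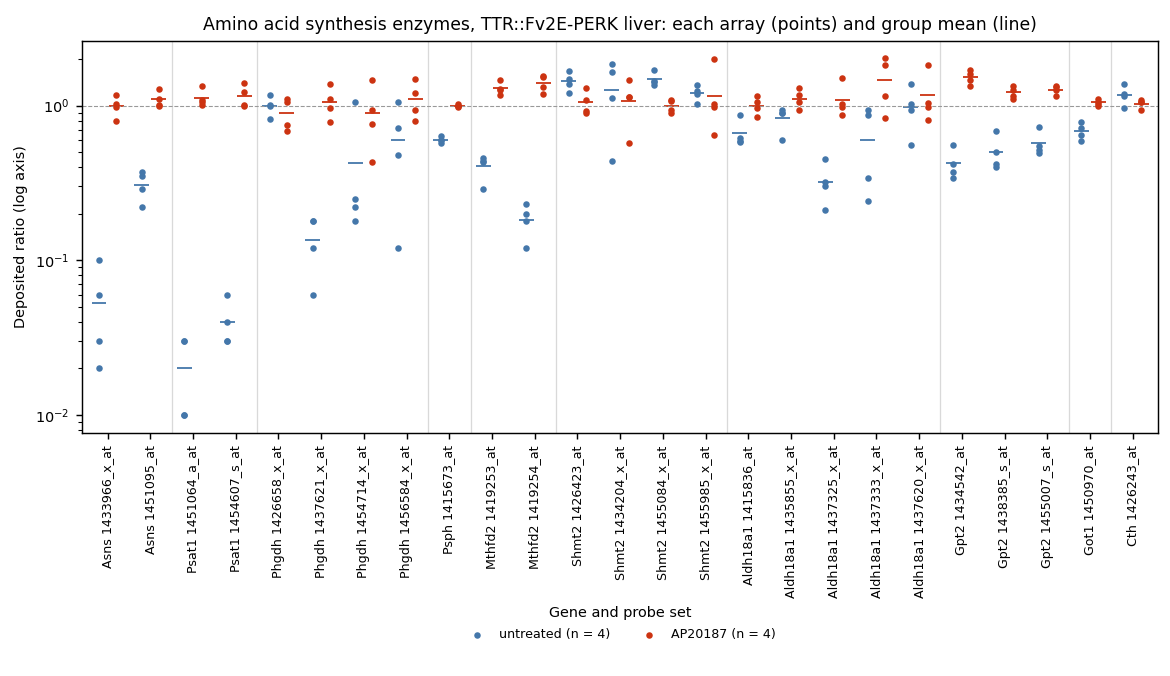
Deposited ratio (log axis) of the 25 probe sets on each array of the TTR::Fv2E-PERK experiment; points are arrays, short lines are group means of 4 arrays. Psat1 lies at 0.01 to 0.06 in the untreated arrays and at 1.0 to 1.40 in the AP20187 arrays, while Cth lies between 0.93 and 1.37 in both.

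Asns was low in every untreated array and near 1 in every treated one. With the probe set 1451095_at the untreated ratios were 0.29, 0.35, 0.37 and 0.22 and the AP20187 ratios 0.99, 1.01, 1.28 and 1.10. The groups were far apart relative to their spread, with means of 0.307 ± 0.0675 and 1.10 ± 0.132 (SD, n = 4 each). The log2 difference was 1.69 ± 0.22, or 3.23-fold (limma, adjusted p = 0.000822). The other Asns probe set, 1433966_x_at, read 0.02, 0.03, 0.06 and 0.10 untreated against 1.17, 0.98, 1.02 and 0.80. Both therefore rose without overlap, the second by 3.40 ± 0.34 (adjusted p = 0.000252). Its untreated values lie near the offset, and with an offset of 0.2 in place of 0.05 its difference was 2.24.

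Each of the 3 steps of serine synthesis had at least 1 probe set that rose. Phgdh makes the first and committed step, and its 4 probe sets, all of the _x_at kind, did not behave alike. Probe set 1437621_x_at held 0.12, 0.06, 0.18 and 0.18 in the untreated arrays and 1.10, 1.37, 0.96 and 0.78 with AP20187. It was higher in all 4 treated arrays, by 2.61 ± 0.35 or 6.1-fold (limma, adjusted p = 0.000863). Probe set 1454714_x_at read 0.25, 1.06, 0.18 and 0.22 against 0.76, 1.47, 0.43 and 0.94. One untreated array, at 1.06, lay among the treated ones, and the difference of 1.21 ± 0.57 was not called (adjusted p = 0.147). Without that array, untreated replicate 2, it was 1.72 and was called (adjusted p = 0.0231). The other 2 Phgdh probe sets overlapped between the groups, with differences of 1.09 ± 0.55 for 1456584_x_at and -0.16 ± 0.18 for 1426658_x_at that were not called.

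Psat1, the transaminase of the second step, was near 0 in every untreated array. Its probe set 1451064_a_at stood at 0.03, 0.01, 0.03 and 0.01 in the untreated arrays, where 0.01 is the smallest ratio the table holds, and at 1.08, 1.33, 1.01 and 1.06 with AP20187. The second Psat1 probe set, 1454607_s_at, gave 0.03, 0.03, 0.06 and 0.04 against 1.22, 1.40, 1.0 and 1.01. Every treated array was above every untreated one by a wide margin in both. The differences were 4.07 ± 0.27 (16.8-fold) and 3.75 ± 0.28 (13.4-fold), with limma adjusted p = 9.16e-05 and 9.97e-05. The size depends on the offset: with 0.01 they were 5.31 and 4.57, and with 0.2 they were 2.58 and 2.49.

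Psph, the phosphatase that releases serine, moved less and very evenly. Its ratios were 0.64, 0.60, 0.60 and 0.57 untreated and 1.0, 1.03, 0.98 and 1.0 treated. The spread within each group was small, at SDs of 0.0287 and 0.0206, and the groups did not overlap. The difference was 0.69 ± 0.12, or 1.61-fold (limma, adjusted p = 0.0029).

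The 2 mitochondrial enzymes that take serine's carbon into folate parted. Mthfd2 rose with both probe sets. For 1419254_at the untreated ratios were 0.12, 0.23, 0.20 and 0.18 and the treated ones 1.55, 1.31, 1.54 and 1.19. For 1419253_at they were 0.29, 0.46, 0.44 and 0.43 against 1.46, 1.28, 1.17 and 1.27. No array of one group reached the other, and the differences were 2.65 ± 0.24 (6.29-fold, limma adjusted p = 0.000182) and 1.58 ± 0.18 (2.98-fold, adjusted p = 0.000469).

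Shmt2, the enzyme directly before it, did not rise with any of its 4 probe sets. Probe set 1455084_x_at fell, from 1.44, 1.36, 1.43 and 1.69 to 1.07, 0.89, 1.09 and 0.93. All 4 treated arrays lay below all 4 untreated ones, with a difference of -0.55 ± 0.10 (limma, adjusted p = 0.0042). Probe set 1426423_at went from 1.48, 1.21, 1.38 and 1.68 to 1.08, 0.90, 1.30 and 0.92, a difference of -0.44 ± 0.14 (adjusted p = 0.0462). Its groups overlapped by 1 array each, and the call was lost with quantile normalization (-0.24, adjusted p = 0.27), with median centring, without the variance trend and on leaving out any 1 array but untreated replicate 2 or AP20187 replicate 3 (-0.46 to -0.36). The remaining Shmt2 probe sets, 1434204_x_at and 1455985_x_at, had differences of -0.13 ± 0.46 and -0.15 ± 0.29 and were not called.

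Aldh18a1, of the proline branch, was higher with 2 of its 5 probe sets. Probe set 1437325_x_at rose from 0.45, 0.30, 0.32 and 0.21 to 0.87, 1.5, 1.02 and 0.98, by 1.64 ± 0.28 or 3.11-fold (limma, adjusted p = 0.00268). Its treated arrays were all above its untreated ones. Probe set 1415836_at went from 0.87, 0.58, 0.62 and 0.59 to 0.85, 1.16, 1.05 and 0.96. The first untreated array was above the first treated one here, and the difference of 0.57 ± 0.17 (adjusted p = 0.035) lost its call on leaving out any 1 array but the first of either group (0.50 to 0.59). The other 3 also had positive differences, of 1.33 ± 0.47, 0.41 ± 0.17 and 0.24 ± 0.31, and were not called. Of these, 1437333_x_at was called without untreated replicate 2 (1.56, adjusted p = 0.0468) or 3 (1.60, adjusted p = 0.0395).

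Both transaminases rose. Gpt2, mitochondrial alanine aminotransferase, was higher with each of its 3 probe sets. At 1434542_at the untreated arrays gave 0.42, 0.37, 0.34 and 0.56 and the AP20187 arrays 1.47, 1.33, 1.70 and 1.61. The groups stood well apart, at 1.75 ± 0.18 or 3.38-fold (limma, adjusted p = 0.000259). The other probe sets differed by 1.23 ± 0.19 and 1.10 ± 0.15, again with no overlap. Got1, cytosolic aspartate aminotransferase, went from 0.59, 0.65, 0.72 and 0.78 to 1.03, 1.11, 1.06 and 0.99. It was higher in 4 of 4 treated arrays, by 0.58 ± 0.13 or 1.5-fold (adjusted p = 0.00805).

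Cth, the last enzyme of the route from methionine to cysteine, was not called. Its ratios were 1.16, 1.19, 0.96 and 1.37 untreated and 1.05, 0.93, 1.06 and 1.08 with AP20187. The groups overlapped, and the difference was -0.17 ± 0.12 (limma, adjusted p = 0.318). Among the probe sets of Atf4 itself, 1438992_x_at rose by 0.93 ± 0.19 (adjusted p = 0.0057), while 1448135_at differed by 0.52 (adjusted p = 0.0691) and 1439258_at by 0.04 (adjusted p = 0.961). In bulk liver, a lower value from fewer cells of a type cannot be told apart from less RNA per cell.

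**Figure D2:**
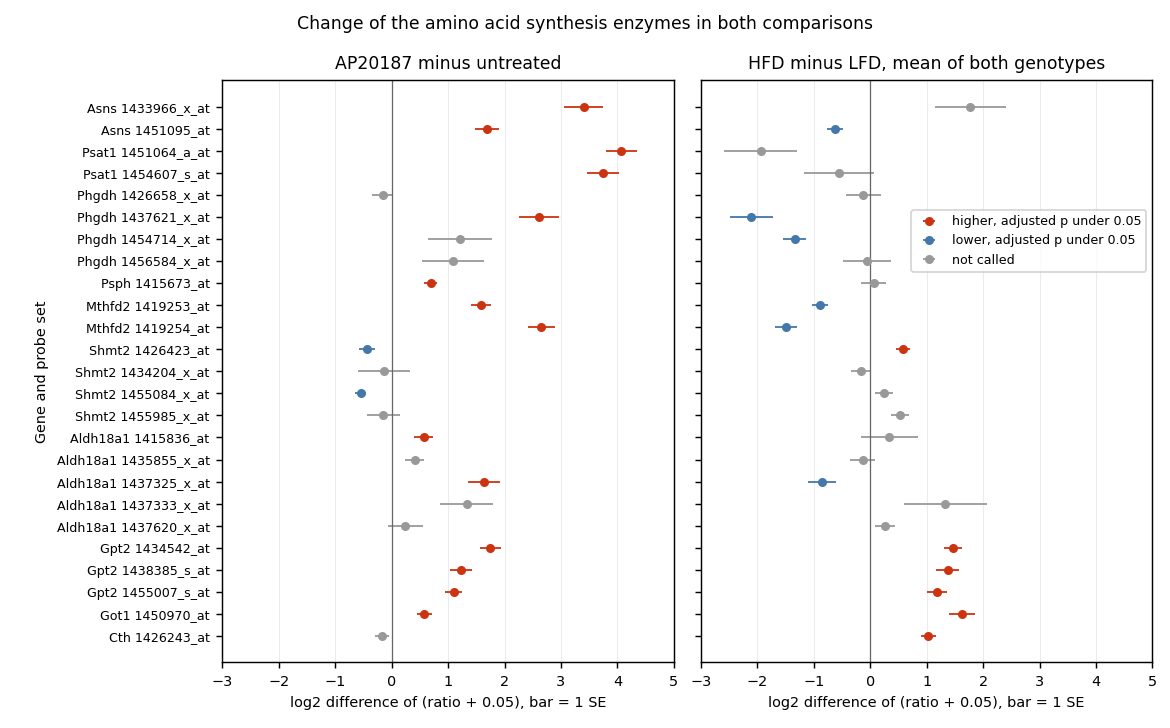
Log2 difference of (ratio + 0.05) for each of the 25 probe sets, AP20187 minus untreated (left, 4 against 4 arrays) and HFD minus LFD over both genotypes (right, 4 against 4 arrays); bars are 1 SE and colours give the limma call. Both Psat1 probe sets lie farthest right on the left panel, and Gpt2, Got1 and Cth are the genes with all their probe sets called higher on the right.

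Several of these enzymes have a partner that runs the same reaction elsewhere in the cell, or the neighbouring reaction, and the pairs were compared within each array. Gpt is the cytosolic counterpart of Gpt2, Got2 the mitochondrial counterpart of Got1, and Mthfd1 and Shmt1 the cytosolic counterparts of Mthfd2 and Shmt2. Cbs makes the cystathionine that Cth cleaves. Over the probe sets of each gene, Mthfd2 differed by 2.12 with AP20187 and Mthfd1 by -0.83. Got1 differed by 0.58 and Got2 by -0.60, and Gpt2 by 1.36 and Gpt by -0.06. By limma, all 3 Mthfd1, both Got2, both Cbs and 3 of 4 Shmt1 probe sets were lower, and the Gpt probe set was not called. Over all probe sets 20.4% were lower. With quantile normalization the lower counts were 3 for Mthfd1, 2 for Got2, 2 for Cbs and 2 for Shmt1, against 15.3% of all probe sets.

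The log2 difference between enzyme and partner was larger with AP20187 by 2.95 for Mthfd2 and Mthfd1, by 1.43 for Gpt2 and Gpt, by 1.18 for Got1 and Got2 and by 0.52 for Cth and Cbs. In each of these 4 pairs all treated arrays were above all untreated ones (two-sided exact permutation p = 0.0286, the smallest that 4 against 4 arrays allow, and 0.0358 adjusted over the 5 pairs). The pair comparisons were added after seeing the data, and a gene of each of these 4 pairs was already called on the same arrays. The permutation p is therefore no independent support for a shift. For Cth the shift came with Cth at -0.17 and Cbs at -0.68. The Shmt2 and Shmt1 pair shifted by 0.21 with overlapping arrays (exact permutation p = 0.4).

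**Figure D3:**
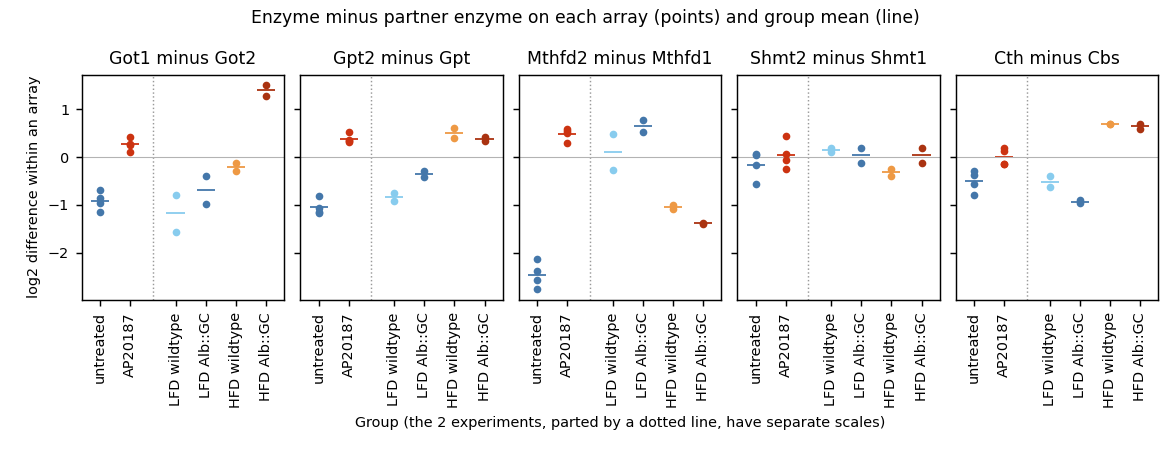
Log2 value of an enzyme minus that of its partner on each array (points) with the group mean (line), for 5 pairs and 6 groups; a dotted line parts the experiments, whose scales are separate. Mthfd2 minus Mthfd1 runs from -2.77 to -2.13 untreated and from 0.295 to 0.583 with AP20187.

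Lists of other amino acid genes are given beside the shares over all probe sets in this comparison, 13.7% higher and 20.4% lower. Among 23 probe sets of 14 further serine, glycine and one-carbon genes, 2 were higher and 15 lower with AP20187, with a median of -0.56. The methionine synthase reductase Mtrr rose by 1.60, while Mtfmt, which formylates the mitochondrial initiator tRNA, fell by 1.12. Of 18 probe sets for proline, glutamate, aspartate and alanine genes, 4 were higher and 6 lower (median -0.31), so both directions occurred. Prodh, which breaks proline down, rose by 0.87, Aspa, which splits acetylaspartate, rose by 0.74, and Glud1, glutamate dehydrogenase, fell by 0.77.

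Of 27 probe sets of the methionine cycle and transsulfuration, 0 were higher and 13 lower (limma), with a median of -0.37. Ethe1, which oxidises sulfide products in mitochondria, fell by 2.72 and the glutathione synthesis subunit Gclc by 1.34 and 1.16. Genes for breaking amino acids down had 0 of 38 probe sets higher and 23 lower (median -0.53), led by ornithine transcarbamylase, Otc, of the urea cycle, which fell by 3.32, 1.49 and 1.41. Of 20 probe sets for serine's use in phospholipids, sphingolipids and D-serine, 0 were higher and 9 lower. All 4 Srr probe sets, of serine racemase, were lower, at -1.36 to -0.89, while of 7 for the phosphatidylserine synthase Ptdss2 1 was lower, at -1.42, and 6 lay between -0.13 and 0.28 and were not called. The median of all probe sets in this comparison was -0.133. With quantile normalization 15.2% of all probe sets were higher and 15.3% lower, so the excess of lower calls over all probe sets was lost, and the lower counts in these 5 lists were 13, 5, 8, 17 and 7.

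Marker lists of liver cell types and a sign of RNA integrity also differed with the treatment, and their part in these results was not tested. Against 20.4% lower and 13.7% higher over all probe sets, 11 of 17 hepatocyte marker probe sets were lower and 3 higher, 10 of 15 for stellate cells and fibroblasts were lower and 7 of 14 for macrophages. The endothelial list, with 3 of 11 lower, was near the share over all. With quantile normalization the lower counts were 8 for hepatocytes, 8 for stellate cells, 4 for macrophages and 2 for endothelium. The median ratio of the stellate list ran from 1.42 to 1.79 untreated and from 0.89 to 0.99 treated, that of the macrophage list from 1.17 to 1.25 and from 0.805 to 1.04, and that of the hepatocyte list from 1.17 to 1.33 and from 0.90 to 1.02. The cholangiocyte, lymphocyte, neutrophil, exocrine pancreas and adipocyte lists had at most 1 called probe set each. The log2 difference between the 3′ and 5′ control probe sets of β-actin was -0.184, -0.122, -0.153 and -0.024 untreated and -0.039, 0.162, 0.164 and 0.162 with AP20187, overlapping by 1 array each. For Gapdh it was -0.061 to -0.01 untreated, and -0.107, -0.15, 0.198 and -0.127 with AP20187.

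The diet experiment asked how the same genes stood on a high fat diet, and whether the Alb::GC transgene altered that. Averaged over the genotypes, 6 of the 25 probe sets were higher on HFD and 6 lower, with 13 not called. Over all probe sets 13.5% were higher and 14% lower. The transaminases Gpt2 and Got1 and the cysteine enzyme Cth rose, and Mthfd2 and 2 of 4 Phgdh probe sets fell. The median difference of the 25 was 0.0637, against -0.0657 for all, and 12 had no overlap between the 4 HFD and 4 LFD arrays. How many of all probe sets had no such overlap was not counted, so the 12 cannot be read as particular to these genes. At an unadjusted limma p under 0.05, 15 of the 25 passed, against 42.1% of all probe sets.

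**Figure D4:**
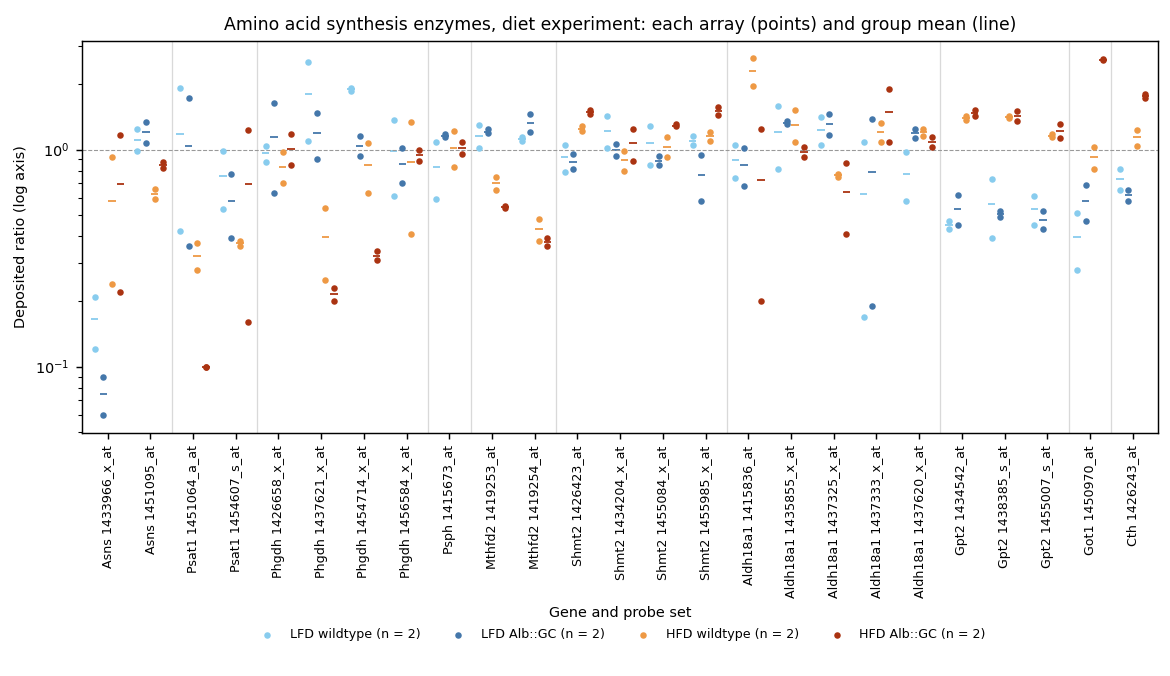
Deposited ratio (log axis) of the 25 probe sets on each array of the diet experiment; points are arrays, short lines are group means of 2 arrays. Gpt2 lies at 0.39 to 0.73 on LFD and 1.13 to 1.52 on HFD, and Got1 reaches 2.58 and 2.61 in the HFD Alb::GC arrays.

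Signs of RNA integrity and some marker lists moved with the diet, and their part in the diet results was not tested. The log2 difference between the 3′ and 5′ control probe sets of Gapdh was 0.044 to 0.234 on LFD and -0.327 to -0.155 on HFD, and for β-actin it was -0.17 to 0.214 on LFD and -0.724 to -0.36 on HFD. These controls separated the diets without overlap. The median ratio of the endothelial list stood at 1.11 to 1.15 on HFD against 0.87 to 0.99 on LFD, with 3 of 11 probe sets higher, and that of the exocrine pancreas list at 0.54 to 0.80 against 1.02 to 1.35, with 2 of 7 lower. Of the hepatocyte markers 3 of 17 were higher and 6 lower, against 13.5% and 14% over all probe sets. Of 7 cholangiocyte probe sets 1 was higher and 2 lower, and 3 of 15 for stellate cells and fibroblasts were lower. The lymphocyte list had 2 of 9 higher, and the macrophage list 2 of 14. With quantile normalization the exocrine pancreas list had 1 lower, the endothelial list 3 higher and the hepatocyte list 3 higher and 4 lower. The neutrophil list differed by genotype: in wildtype its median ratio was 1.51 to 1.84 on HFD against 0.83 to 0.99 on LFD, with 3 of 5 probe sets higher, and in Alb::GC 0.51 to 0.83 against 1.04 to 1.16, with 1 of 5 lower. The interaction was called for 0 of these 5. Over all probe sets, 7.97% were higher on HFD in wildtype and 2.13% lower on HFD in Alb::GC.

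Gpt2 rose in both genotypes. Probe set 1434542_at read 0.47, 0.43, 0.62 and 0.45 in the LFD arrays and 1.37, 1.43, 1.52 and 1.42 in the HFD arrays, wildtype first in each. All HFD arrays were above all LFD arrays, by 1.46 ± 0.16 (limma, adjusted p = 0.0034). The differences at 1438385_s_at and 1455007_s_at were 1.37 ± 0.21 (adjusted p = 0.00835) and 1.18 ± 0.18 (adjusted p = 0.00841). The diet difference of 1434542_at was 1.54 in wildtype and 1.39 in Alb::GC mice.

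Got1 had the widest range over the 4 diet groups of any gene with 1 probe set here. Its ratios were, for wildtype mice, 0.51 and 0.28 on LFD and 0.81 and 1.03 on HFD, and for Alb::GC mice 0.69 and 0.47 on LFD and 2.58 and 2.61 on HFD. The LFD groups overlapped each other, HFD wildtype lay above both, and HFD Alb::GC lay above all others. The rise over both genotypes was 1.63 ± 0.23 or 3.09-fold (limma, adjusted p = 0.00692). Alb::GC exceeded wildtype on HFD by 1.46 ± 0.33, which was not called (adjusted p = 0.18), and the diet by genotype interaction of 0.93 ± 0.46 was not called either (adjusted p = 0.519).

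Cth stood at 0.81 and 0.65 on LFD and at 1.04 and 1.23 on HFD for wildtype mice, and at 0.58 and 0.65 on LFD and 1.81 and 1.73 on HFD for Alb::GC mice. The order of the groups was that of Got1 on HFD, while the LFD groups touched at 0.65. It rose by 1.03 ± 0.13 or 2.04-fold over both genotypes (limma, adjusted p = 0.00489). Its interaction was 0.85 ± 0.25, which was not called (limma, adjusted p = 0.325).

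Mthfd2 fell on HFD, opposite to its rise with AP20187. Probe set 1419254_at read 1.14, 1.10, 1.20 and 1.46 in the LFD arrays, wildtype first, and 0.38, 0.48, 0.36 and 0.39 in the HFD arrays. The groups did not overlap, at -1.49 ± 0.19 (limma, adjusted p = 0.00516). Probe set 1419253_at fell by 0.89 (SE 0.15, adjusted p = 0.0103), from 1.02, 1.30, 1.19 and 1.24 to 0.75, 0.65, 0.55 and 0.54.

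Of the serine pathway, Phgdh fell with 2 probe sets. At 1437621_x_at the LFD arrays, wildtype first, held 2.52, 1.10, 0.90 and 1.48 and the HFD arrays 0.25, 0.54, 0.20 and 0.23. This was the probe set with the large rise under AP20187, and on HFD it differed by -2.11 ± 0.38 without overlap (limma, adjusted p = 0.0134). Probe set 1454714_x_at went from 1.93, 1.86, 1.15 and 0.93 to 0.63, 1.07, 0.31 and 0.34, by -1.34 ± 0.20 (adjusted p = 0.00775), with HFD wildtype replicate 2 above LFD Alb::GC replicate 2. The other Phgdh probe sets differed by -0.12 ± 0.31 and -0.06 ± 0.42 and were not called.

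Psat1 scattered widely within the diet groups. Probe set 1451064_a_at gave 1.93 and 0.42 for wildtype and 0.36 and 1.73 for Alb::GC mice on LFD, and 0.37 and 0.28 for wildtype and 0.10 on both Alb::GC arrays on HFD. Replicates of both LFD groups were several-fold apart, and the difference of -1.94 ± 0.65 was not called (limma, adjusted p = 0.0699). It was called without LFD wildtype replicate 2 (-2.46, adjusted p = 0.049) or LFD Alb::GC replicate 1 (-2.47, adjusted p = 0.0484). Probe set 1454607_s_at differed by -0.55 ± 0.62, with HFD Alb::GC arrays at 1.23 and 0.16, and Psph by 0.06 ± 0.22. Neither was called.

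Asns gave opposite answers with its 2 probe sets on HFD. Probe set 1451095_at read 0.99, 1.24, 1.34 and 1.07 in the LFD arrays, wildtype first, against 0.59, 0.66, 0.88 and 0.82 in the HFD arrays. It fell by 0.63 (SE 0.14, limma adjusted p = 0.0254), a call that was lost on leaving out any 1 array but LFD wildtype replicate 1 or LFD Alb::GC replicate 2 (-0.66 to -0.55). Probe set 1433966_x_at read 0.12, 0.21, 0.09 and 0.06 in the LFD arrays and 0.24, 0.92, 1.17 and 0.22 in the HFD arrays. Its HFD arrays were all above its LFD arrays, with a difference of 1.77 ± 0.63 that was not called (adjusted p = 0.0828) except without HFD Alb::GC replicate 2 (2.32, adjusted p = 0.0492). The direction of Asns on HFD is therefore not settled by this array.

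Shmt2 and Aldh18a1 each had 1 probe set called on HFD. Shmt2 1426423_at rose from 1.05, 0.79, 0.95 and 0.81 to 1.22, 1.28, 1.52 and 1.46, by 0.58 ± 0.12 (limma, adjusted p = 0.0194). That call was lost on leaving out LFD Alb::GC replicate 2 or any 1 HFD array (0.53 to 0.60), while 1455985_x_at, at 0.52 ± 0.16, was called with median centring or without LFD Alb::GC replicate 2. The other Shmt2 probe sets differed by 0.24 ± 0.16 and -0.17 ± 0.17. Aldh18a1 1437325_x_at fell by 0.85 (SE 0.25, adjusted p = 0.0476), a call lost with median centring, without the variance trend and on leaving out any array but HFD Alb::GC replicate 1 (-0.96 to -0.60). The 4 other Aldh18a1 probe sets ranged from -0.13 to 1.33 and were not called, though 1437620_x_at was without LFD wildtype replicate 1 (0.43). One of them, 1415836_at, held 1.97 and 2.63 in HFD wildtype but 1.25 and 0.20 in HFD Alb::GC, and its difference of 0.34 was -0.25 without HFD Alb::GC replicate 1 and 0.94, and called, without replicate 2.

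Within single genotypes fewer probe sets were called. In wildtype mice 3 were higher on HFD, all of Gpt2, and 2 lower, Mthfd2 1419254_at at -1.29 and Phgdh 1454714_x_at at -1.16, against 7.97% higher and 6.63% lower over all probe sets. Got1 differed by 1.16 (limma, adjusted p = 0.0614) and Cth by 0.61 (adjusted p = 0.07) there. In Alb::GC mice 5 were higher, the 3 of Gpt2 with Got1 at 2.09 and Cth at 1.45, and 3 lower, both of Mthfd2 at -1.09 and -1.69 and Phgdh 1454714_x_at at -1.53. Over all probe sets 4.64% were higher and 2.13% lower in that comparison. With only the 4 arrays of a genotype fitted, 0 members were called in either. In wildtype, 0 were higher without either HFD wildtype array, and 0 lower without any 1 of the 4 wildtype arrays. In Alb::GC, 0 were higher without LFD replicate 1 or either HFD array, and 0 lower without any 1 of the 4 Alb::GC arrays.

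No probe set of the 10 genes was called between Alb::GC and wildtype mice or for the interaction of diet and genotype by limma, under any alternative tried. Over all probe sets the shares called were 0.0% averaged over diets, 0.0% on LFD, 0.133% on HFD and 0.0% for the interaction. At an unadjusted p under 0.05, 2, 2, 4 and 2 of the 25 passed, against 11.5%, 10.3%, 11.2% and 11.1% of all probe sets. Averaged over diets the members with the smallest adjusted p were Phgdh 1454714_x_at at -1.03 ± 0.20 (adjusted p = 0.193) and Got1 at 0.99 ± 0.23 (adjusted p = 0.231).

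The partner enzymes were also compared on HFD. Got1 shifted against Got2 by 1.53, Cth against Cbs by 1.39 and Gpt2 against Gpt by 1.03, with all HFD arrays above all LFD arrays, and Mthfd2 against Mthfd1 by -1.60 with all below. The Got2 value averages probe sets that went opposite ways, 1417715_a_at at -0.26 ± 0.11 and 1417716_at at 0.46 ± 0.14. The exact two-sided permutation test, which kept genotypes apart, gave p = 0.0556 for each of the 4 pairs, the smallest its 36 arrangements allow, so it cannot pass 0.05 here. These pair comparisons too were added after seeing the data. Shmt2 against Shmt1 shifted by -0.24 with overlap (exact permutation p = 0.222). Among the partners, 3 of 4 Shmt1 probe sets and 1 of 3 of Mthfd1 were higher on HFD, and those of Got2, Gpt and Cbs were not called. For Atf4, 1448135_at was lower on HFD, at -0.86 ± 0.14 (limma, adjusted p = 0.00987). Its probe sets 1438992_x_at and 1439258_at differed by -0.22 and -0.05 and were not called.

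In the same lists on HFD, most probe sets were not called, and the shares over all probe sets were 13.5% higher and 14% lower. Higher and lower counts were 6 and 1 of 23 probe sets for serine, glycine and one-carbon genes (median 0.35), among them Dld, a subunit of glycine cleavage and other complexes, at 0.80. They were 3 and 0 of 18 for proline, glutamate, aspartate and alanine genes (median 0.27), namely Prodh at 1.05, Oat, which links ornithine to glutamate, at 0.89, and glutamine synthetase, Glul, at 0.64 and, uncalled, 0.24. They were 8 and 3 of 27 for the methionine group (median 0.05), with the methionine salvage enzyme Adi1 at 2.90 and 1.56 and Ethe1 at -1.28. For amino acid breakdown they were 9 and 2 of 38 (median 0.17), with Hibch of valine breakdown at 2.21 and, uncalled, 0.34. For serine's lipid fates and D-serine they were 5 and 3 of 20 (median 0.18), or 4 and 3 of 19 without Psd, whose product is an exchange factor outside this pathway. Srr, serine racemase, was higher with 1 probe set, at 0.97, and lower with another, at -0.46.

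The genes whose values followed each Asns probe set most closely were named by Pearson's r of log2 values over the 8 arrays of an experiment, as a description, since the arrays share their groups. For Asns 1451095_at in the TTR::Fv2E-PERK experiment they were Chd7, Ier5 and B3gnt2, each at 0.995, and 0.93, 0.904 and 0.926 after group means were removed. In the diet experiment they were Hspb7 at 0.998, Adam19 at 0.991 and Uckl1 at 0.989. For 1433966_x_at other genes came first: Vegfa at 0.998 and Crkl and Mmadhc at 0.996 with AP20187, and Ccdc88a at 0.966, Col8a1 at 0.958 and Vamp3 at 0.945 in the diet experiment. No gene was named for both probe sets or in both experiments.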

How the data were processed

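Each deposited value was a ratio, linear and around 1, with 2 decimals. The values themselves gave the unit; the authors' reference, scanner software and way of summarising probes were not stated in the sources used here. Per the labels' protocols, total RNA was purified and copied into biotinylated cRNA. Array medians were 0.94 to 1.02, and no array was rescaled. Groups came from the labels; for LFD wildtype replicate 2 and AP20187 replicate 4 another field was unclear, and the description was followed. Replicates correlated at 0.442 to 0.658 and shared at most 2.46% of values, so none was a duplicate.

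After adding 0.05, log2 values of 22626 probe sets (64 controls left out) entered linear models (limma 3.58.1, R 4.3.3, data.table package, version 1.17.8), each experiment apart, with a variance trend and two-sided Benjamini-Hochberg adjustment at 0.05; tables and plots used Python 3.11.15, pandas 2.3.3 and matplotlib 3.10.9. The diet fit shared 1 spread over its 4 groups. Residual degrees of freedom were 6 and 4, plus 2.06 and 2.3 from the prior. The ratios carry no depth, and the number of arrays limits the precision. Symbols came from the platform annotation, which can be old: 20380 probe sets had 1 symbol, 691 several and 1555 none. On simulated data, AP20187 recovered 43% of probe sets changed by 1 log2 unit and 68% of those changed by 2, and HFD 33% and 49%, with 3 false calls each. Far fewer probe sets were changed in the simulation than were called in the data, which makes the adjusted threshold stricter there. These shares and false calls therefore do not carry over to the calls above.

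All member probe sets are named. Of each pathway list, the up to 3 called probe sets of largest difference per comparison were eligible. Partner enzymes and Atf4 were given for AP20187 and for HFD over both genotypes, and not within single genotypes. The members and lists were chosen with earlier results of these data known. Offsets, quantile and median scaling, the trend, a filter on values up to 0.05, single arrays, smaller fits and exact tests were varied; leaving out _x_at probe sets or Psd, the partner comparisons and other scalings of the lists were added after seeing the data.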

Additional observations from a re-analysis of the deposited data

Results flagged for a closer look

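In 3 of 50 sets of 4 arrays, 1 array stood far from the other 3 by Dixon's criterion, which chance meets in about 1 set in 20. All 3 were untreated arrays. Phgdh 1454714_x_at had a highest ratio of 1.06 beside 0.18 to 0.25. Aldh18a1 1415836_at had a highest ratio of 0.87 beside 0.58 to 0.62, and Aldh18a1 1435855_x_at a lowest ratio of 0.60 beside 0.89 to 0.93. The extreme array was untreated replicate 2 for the Phgdh and the second Aldh18a1 probe set, and replicate 1 for the other.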

How the results depend on the processing

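Of 41 member calls, 23 held under every alternative in which they were tested. These were 14 of 16 with AP20187, 9 of 12 for HFD over both genotypes, and 0 of 13 within single genotypes. With AP20187, a filter keeping probe sets above 0.05 on every array removed both Psat1 probe sets and the _x_at probe set of Asns. Their AP20187 calls were therefore not checked under that filter. It left 22 member probe sets, of which 11 were higher, covering 7 genes, and 2 lower. The exact permutation test gave its smallest p, 0.0286, for 14 of the 16 AP20187 calls, all but Aldh18a1 1415836_at and Shmt2 1426423_at. Counted as genes, AP20187 had 8 higher and 1 lower; the lower probe sets were also 1 without _x_at probe sets, with quantile or median scaling and without the trend, and 1 to 2 on leaving out single arrays. HFD over both genotypes had 3 lower without _x_at probe sets. In wildtype the higher count was 1 with quantile scaling or as genes, 0 with only the 4 arrays and 0 to 4 without single arrays; the lower count was 1 without _x_at probe sets, 0 with only the 4 arrays and 0 to 1 without single arrays. In Alb::GC the higher count was 3 as genes, 0 with only the 4 arrays and 0 to 6 without single arrays; the lower was 0 and 0 to 2. The HFD difference of Aldh18a1 1415836_at turned to -0.25 without HFD Alb::GC replicate 1 and was 0.94 without replicate 2 of that group. The cause was not tested. Over all probe sets, HFD calls numbered 3287 to 5035 without single arrays in place of 6233, 47 to 2590 in place of 3303 in wildtype (957 with only the 4 arrays) and 18 to 1680 in place of 1531 in Alb::GC (0 with only the 4 arrays); Alb::GC against wildtype on HFD gave 0 to 45 in place of 30, and the interaction 5 in place of 0 without the trend. No paired analysis was possible because the labels give the groups no shared replicate numbers.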

Other observations

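A pair of probe sets listed for Phgdh together with another symbol was left out of the 25. One of them, 1456471_x_at, read 0.10, 0.11, 0.47 and 0.65 in the untreated arrays and 1.59, 1.35, 1.62 and 1.47 with AP20187, a difference of 2.35 ± 0.52 (limma, adjusted p = 0.00937). The other, 1426657_s_at, differed by 1.44 ± 0.51 (adjusted p = 0.0595).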
